A study of Mus musculus with 17 samples.

Results

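The mouse genes numbered from Zfp600 to Zfp999 were followed in single 2-cell embryos. This is a numbering block of zinc finger genes and not a gene family in the strict sense. Members were all array rows whose platform annotation gave exactly 1 symbol made of Zfp and a number in that range. The rule took 150 rows, which stood for 139 genes, out of 21780 rows with exactly 1 symbol and 28815 rows in all. No measured value entered the rule, although the block was chosen with earlier results of these data known. Of the 139 genes, 138 were matched in a mouse gene table by gene identifier; the exception was Zfp640. Another 34 rows named a gene of the block together with other symbols and were kept apart, because their signal cannot be assigned to 1 gene.

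Zinc finger proteins of the C2H2 type bind DNA through arrays of fingers, and many in this numbering block also carry a KRAB domain. The KRAB domain recruits the co-repressor TRIM28, which brings the histone methyltransferase SETDB1 and heterochromatin protein to the bound site. The best known targets in the early embryo are retrotransposons and imprinted regions. Genes of this class often lie in clusters that arose by duplication. The block also holds zinc finger proteins without a KRAB domain, such as Zfp622 and Zfp706.

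Each array was hybridized with amplified RNA of 1 embryo at the 2-cell stage, when maternal transcripts are cleared and the embryonic genome becomes active. All animals were wild-type mice of the inbred strain 129SVE from Taconic (129S6/SvEvTac). Sires received daily injections for 6 weeks, either with saline or with PJ34, which blocks PARP1 and PARP2 (enzymes that make poly(ADP-ribose)), and were then mated naturally with untreated females. The labels name the control fathers both as saline treated and as untreated. There were 7 control embryos, 1 from sire A, 3 from sire B and 3 from sire D, and 10 PJ34 embryos, 4 from sire MTM11, 4 from sire MTM13 and 2 from sire MTM14. Embryos are named by their sire and number (B-1, MTM11-2). Embryos of 1 sire share that father, and a difference in RNA amount per embryo cannot be told apart from a difference in RNA make-up in data scaled array by array.

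The values were log2 intensities after RMA (robust multichip average), in which 1 unit is a doubling of signal, and array medians lay between 6.12 and 6.23. Stage and purity were checked on lists of marker genes. All 10 oocyte and egg markers found on the array were above the level of the dim reference (log2 6.29, the 95th percentile of the olfactory receptor rows), and so were 6 of 7 markers of 2-cell embryos, among them Zfp352 and Tcstv3. None of 10 cumulus and granulosa cell markers was above it. The oviduct list had 3 of 6 above it (Epcam, Krt8 and Tuba1a), the blood list 1 of 4 (Slc4a1) and the sperm and testis list 1 of 6 (Prm2). The mean level of the oviduct list ran from 6.82 to 6.99 in control embryos and from 6.84 to 7.17 in PJ34 embryos, and its part in the results below was not tested.

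Promoters are shown because the zinc finger genes differed widely in array level, in some cases also between direct neighbors. The first pair below sets 2 bright members of opposite CpG content side by side. The second pair is Zfp872 and Zfp809, neighbors on chromosome 9 with the widest gap in level of all neighboring members. Each sequence is the 250 bases before the first listed transcription start, 5′ to 3′ on the strand of the gene, from RefSeq on GRCm38.p6, with every CpG in capitals. The windows were chr5:124862455-124862704 (plus strand) for Zfp664, chr8:85123096-85123345 (minus strand) for Zfp791, chr9:22187916-22188165 (plus strand) for Zfp872 and chr9:22225453-22225702 (plus strand) for Zfp809.
Zfp664: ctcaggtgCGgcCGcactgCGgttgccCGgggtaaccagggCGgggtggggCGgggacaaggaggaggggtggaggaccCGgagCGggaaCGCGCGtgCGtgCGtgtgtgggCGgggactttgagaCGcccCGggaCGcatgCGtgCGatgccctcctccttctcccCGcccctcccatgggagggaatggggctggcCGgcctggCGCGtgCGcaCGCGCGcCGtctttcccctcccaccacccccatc
Zfp791: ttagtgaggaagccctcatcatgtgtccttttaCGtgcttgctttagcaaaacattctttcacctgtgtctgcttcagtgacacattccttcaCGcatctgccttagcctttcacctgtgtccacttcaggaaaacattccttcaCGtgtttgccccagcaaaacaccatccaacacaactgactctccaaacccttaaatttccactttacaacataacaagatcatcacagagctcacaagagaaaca
Zfp872: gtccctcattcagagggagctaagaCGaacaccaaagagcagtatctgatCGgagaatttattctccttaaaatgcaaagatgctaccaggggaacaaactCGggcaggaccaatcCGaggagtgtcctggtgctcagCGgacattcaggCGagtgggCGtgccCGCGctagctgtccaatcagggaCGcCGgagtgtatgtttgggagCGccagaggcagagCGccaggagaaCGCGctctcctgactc
Zfp809: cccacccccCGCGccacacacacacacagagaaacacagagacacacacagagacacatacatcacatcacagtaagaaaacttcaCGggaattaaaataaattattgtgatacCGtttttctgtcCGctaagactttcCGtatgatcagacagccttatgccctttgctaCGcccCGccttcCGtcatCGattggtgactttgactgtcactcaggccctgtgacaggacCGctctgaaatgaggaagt

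These 250 bases held 28 CpG in Zfp664 and 3 in Zfp791, although both genes were among the 10 brightest members. They held 15 CpG in the dim Zfp872 and 11 in the bright Zfp809. The first pair was chosen for its contrast in CpG, and both pairs serve as examples. RefSeq promoters (300 bases, 50 of them after the start) were matched for 120 member genes, and Zfp706 is named here without one. The median ratio of observed to expected CpG was 0.615 in the members and 0.389 in all 27025 promoters. The ratio was above 0.6 in 63 of 120 member promoters (52.5%) against 36.4% of all promoters. It was above 0.6 in 32 of 61 members above the dim reference and in 31 of 59 members at or below it, so that the share was about equal on both sides.

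Short motifs were searched in the same windows on both strands, and matches of different motifs may overlap. GGGCGG, the core of the GC box, was in 58 member promoters (48.3%) against 35.9% of all promoters. CCAAT was in 67 (55.8%) against 37.9%. TATAAA was in 4 (3.33%) against 14.2%. Member promoters as a group were therefore richer in CpG, GC boxes and CCAAT letters and poorer in TATA letters than all 27025 promoters. Those 27025 were not limited to protein-coding genes, of which the gene table held 21900. The part of this in the differences was not tested. Zfp872 and Zfp809 both held CCAAT and neither held GGGCGG or TATAAA. A match is a description of the sequence only.

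The members covered almost the whole range of the array in control embryos. Their mean levels ran from 3.60 (Zfp953) to 12.34 (Zfp706), with a median of 6.41 and quartiles at 5.23 and 7.49. The median of all rows with 1 symbol was 6.27. Above the dim reference were 80 of 150 members (53.3%), against 49.2% of all rows and 47.3% of the 184 rows for the lower numbers Zfp1 to Zfp599. In the olfactory receptor rows, which set the reference, the share was 5.08%. There were 24 members above log2 8 and 29 below log2 5, and 12 members stood in the brightest 10% of all rows. Probe sets bind with different strength, so the order of rows is an order of array signal and not of transcript number.

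**Figure D1:**
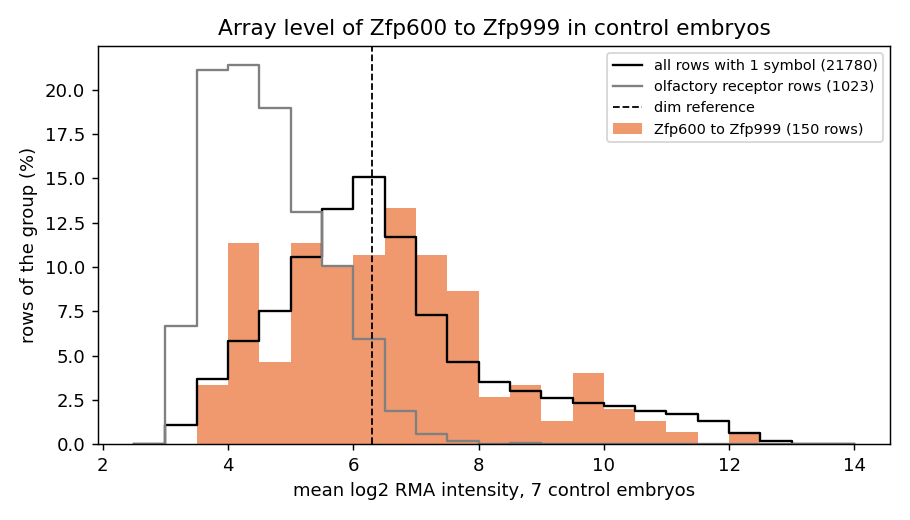
Distribution of the mean log2 RMA intensity in 7 control embryos (x axis) as a share of each group of rows in percent (y axis), for the 150 rows of Zfp600 to Zfp999 (filled bars), all rows with 1 symbol (black line) and olfactory receptor rows (grey line); the dashed line is the dim reference at log2 6.29. The members spread over the range of all rows, and 80 of them lie above the reference.

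Zfp706, which acts in the exit of embryonic stem cells from self-renewal, was the brightest member. Its first row read 12.05 at the lowest, 12.41 at the median and 12.59 at the highest in control embryos, and 11.86, 12.21 and 12.43 in PJ34 embryos. The groups overlapped and every embryo of either group was bright. Zfp622, the mouse form of a factor that matures the large ribosomal subunit in the cytoplasm, came next by signal. It read 10.64, 11.03 and 11.30 at the lowest, median and highest in control embryos and 10.43, 10.99 and 11.25 in PJ34 embryos. Zfp791 stood at 10.90 ± 0.23 (SD, n = 7) in control and 10.83 ± 0.48 (SD, n = 10) in PJ34 embryos. Between Zfp622, Zfp791 and the first row of Zfp825 (10.88 ± 0.39, SD, n = 7) the control means differed by less than the spread between embryos. The next members by control mean were Zfp655 (10.50), the second row of Zfp664 (10.31), Zfp820 (10.14), Zfp961 (9.80), Zfp644 (9.67) and Zfp638 (9.62). ZFP644 acts with the histone H3K9 methyltransferases G9a and GLP, and ZFP638 recruits the HUSH silencing complex to retroviral DNA. The first row of Zfp706 stood above all others by more than its spread. From Zfp825 to Zfp638 each row in the order differed from the next by less than its control SD.

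**Figure D2:**
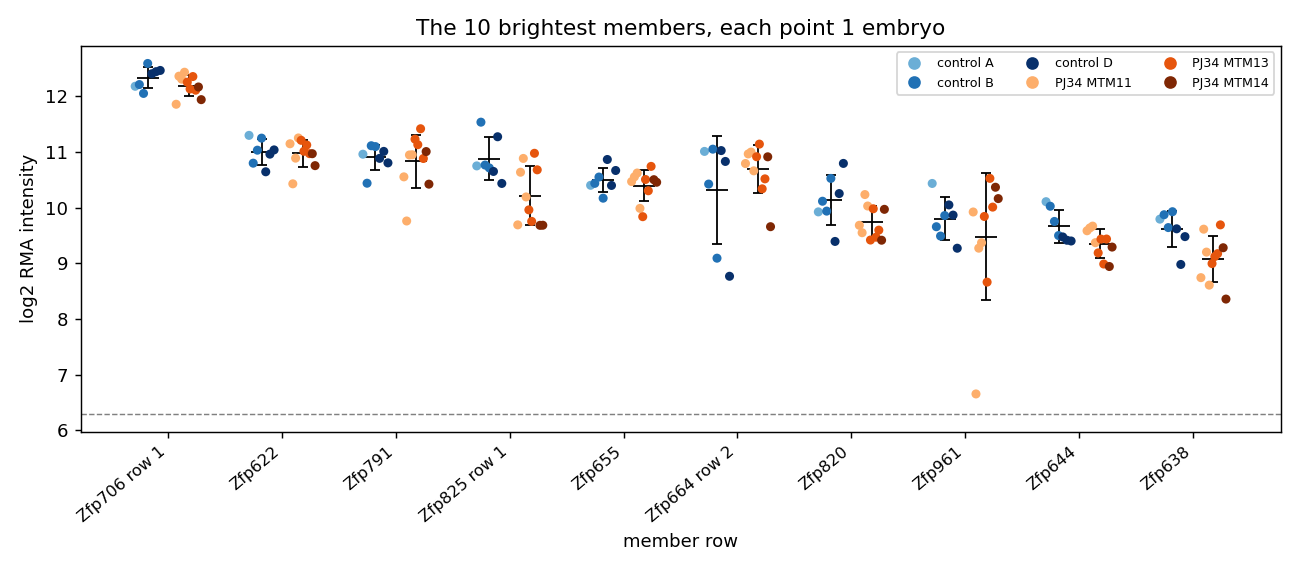
Log2 RMA intensity (y axis) of the 10 brightest member rows (x axis) in each of 17 embryos; points are embryos colored by sire, control at the left and PJ34 at the right of each row, bars are the group mean ± SD and the dashed line is the dim reference. The groups overlap in every row, and Zfp961 has 1 PJ34 embryo, MTM11-2, at 6.66.

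Members with a described role in silencing or development were not all bright. Zfp809, which starts the silencing of murine leukemia virus through its primer binding site, ran from 6.40 over a median of 9.09 to 9.89 in control embryos and from 7.27 over 8.92 to 10.29 in PJ34 embryos. It was above the dim reference in all 17 embryos, with the lowest control value in embryo D-3. Zfp819 and Zfp708, which repress retroelements, stood below the reference, at 5.14 ± 0.23 and 5.22 ± 0.44 in control embryos (SD, n = 7). Zfp830, needed for survival of the preimplantation embryo, stood at 6.01 ± 0.51 (SD, n = 7), also below it. The X-linked Zfp711, a partner of the histone demethylase PHF8, was at 4.16 ± 0.11 (SD, n = 7). Zfp703, a transcriptional co-repressor, was at 7.43 ± 0.13 and Zfp750, a factor of epidermal differentiation, at 7.98 ± 0.36 (SD, n = 7). Zfp661 was at 6.34 ± 0.11 (SD, n = 7), just above the reference. Zfp683 was not analysed here.

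Array level differed between chromosomes, which is given as a description. Chromosome 7 held 34 member rows, of which 15 were above the dim reference. Chromosome 17 held 19, and only 2 of these, Zfp948 and Zfp820, were above it; the chromosome median was 4.94. By contrast, 7 of 8 rows on chromosome 15 and 9 of 11 on chromosome 4 were above it, with medians of 8.86 and 7.26. Of 138 placed genes, 81 (58.7%) had a neighboring protein-coding gene with a zinc finger symbol, against 3.65% of all 21900 protein-coding genes. In 28 cases 2 members were direct neighbors. By the brightest row of each gene, their levels differed by a median of 0.58, compared with 1.65 over all pairs of members. All pairs include those on different chromosomes, and the part of chromosome level in the likeness of neighbors was not tested. Probe sets of related neighbors may share sequence, and the part of this in their likeness was not tested.

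Direct neighbors could still differ widely. In 8 of the 28 pairs 1 member was above the dim reference and the other was not. Zfp872 lay between 4.03 and 4.33 in all 17 embryos, with a control mean of 4.17, beside Zfp809 with a control mean of 8.80. On chromosome 17, Zfp948 (7.58) lay beside Zfp983 (4.07). On chromosome 8, Zfp882 (5.28), Zfp617 (8.08) and Zfp961 (9.80) followed each other. These comparisons between rows are descriptions of array signal.

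Different rows of 1 gene often read different levels. Of the members, 5 genes had 2 rows and 3 had 3 rows. The rows of Zfp825 stood at 10.88 and 6.42 in control embryos, those of Zfp664 at 10.31 and 6.69 and those of Zfp706 at 12.34 and 9.55. For Zfp738 the rows stood at 4.39, 4.09 and 6.94, and for Zfp985 at 7.26, 7.73 and 4.86. The rows of Zfp788 held identical values in all embryos and carry 1 measurement, although both were kept in the counts over member rows. Within a gene the rows agreed in the sign of the difference between PJ34 and control for Zfp825, Zfp664, Zfp985, Zfp640 and Zfp672 and disagreed for Zfp738 and Zfp706.

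By the median, members varied more between embryos than other rows of the same level, and dim members more so than bright ones. The SD within the groups had a median of 0.295 log2 units over the members, and of 0.188 over all rows. Because the spread changes with level on this array, each row was ranked among rows of like level. The median rank of the members was the percentile 68.0, against 60.4 for Zfp1 to Zfp599. It was 60.2 for the 80 members above the dim reference and 77.2 for the 70 at or below it. Of 150 members, 35 were in the most variable 10% for their level, 13 of them above the dim reference and 22 at or below it. Members differed among themselves, from an SD of 0.051 for Zfp953 to 2.02 for the second row of Zfp672. The ratio of the SD in PJ34 embryos to that in control embryos had a median of 0.965 over the members and 1.05 over all rows, and the SD was larger in PJ34 embryos for 71 of 150 members (47.3%) against 53.6% of all rows.

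**Figure D3:**
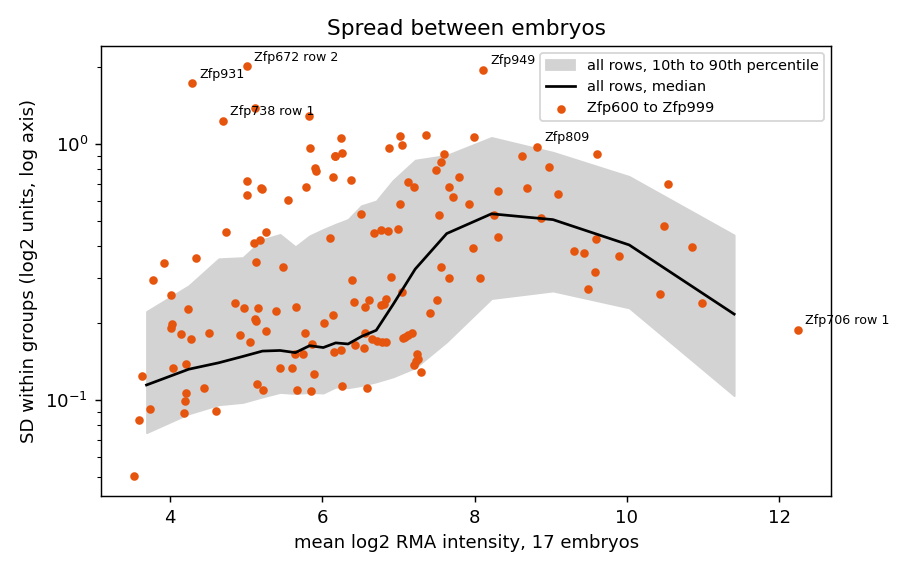
SD within groups in log2 units (y axis, log scale) against the mean log2 RMA intensity over 17 embryos (x axis); points are the 150 member rows, the line is the median over all rows in 20 bins of level and the band their 10th to 90th percentile. Many dim and middle members lie above the band, while the brightest, Zfp706, lies near the line.

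Among members above the dim reference, Zfp949 had the largest SD, 1.96. Its control values were 7.99 in A-2, 9.25, 10.71 and 8.92 in the embryos of sire B and 6.36, 5.84 and 5.63 in those of sire D. The embryos of sires B and D thus did not overlap. Its PJ34 values were 10.90, 9.58, 9.40 and 5.36 for sire MTM11, 6.39, 10.68, 7.45 and 9.21 for sire MTM13 and 5.89 and 8.27 for sire MTM14, so that embryos of the same PJ34 father lay at both ends. Over all 6 sires the difference did not pass (moderated F test in limma, adjusted p = 0.984). Zfp948 (SD 1.09), the first row of Zfp640 (1.08), Zfp617 (1.07), Zfp873 (1.06) and Zfp980 (0.998) followed. In each of these the values of both groups overlapped over most of their range.

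Several dim members were high in 1 or a few embryos. This was noticed in the values and then counted. An embryo more than 2 log2 units above the median of the row occurred in 15 of 150 members (10%), against 5.82% of all rows and 10.3% of Zfp1 to Zfp599. Among rows whose median was at or below the dim reference, the shares were 15.5% of 71 members and 6.11% of all rows. The second row of Zfp672 read 10.38 in PJ34 embryo MTM11-2 and 9.63 in control embryo D-2, with a median of 4.21. The other row of Zfp672 read 6.53 and 6.95 in the same embryos, within its range in the others. Zfp931 read 8.79 in B-3, 7.31 in MTM13-3 and 6.88 in MTM14-1, with a median of 3.64. The first row of Zfp738 read 9.32 in MTM13-1 and no more than 5.02 in any other embryo, while Zfp882 read 8.46 in MTM13-2 and 8.32 in D-3 with a median of 4.45. High single embryos thus occurred in both groups and in different embryos for different members.

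**Figure D4:**
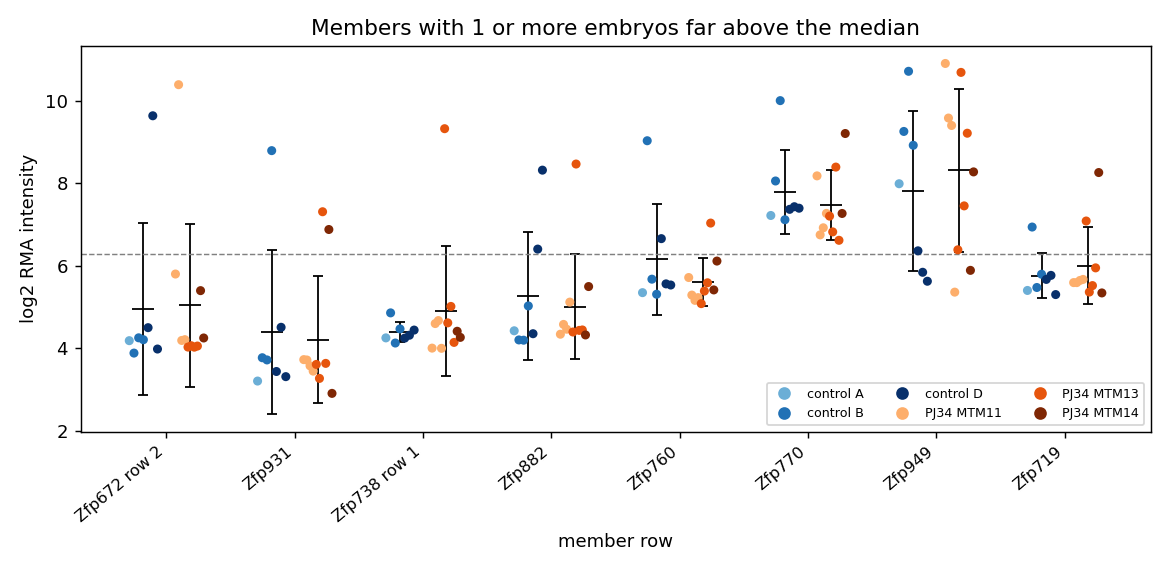
Log2 RMA intensity (y axis) in each of 17 embryos of the 8 member rows (x axis) with the largest distance between the highest embryo and the median; points are embryos colored by sire, control at the left and PJ34 at the right, bars are the group mean ± SD and the dashed line is the dim reference. The high points come from both groups, as for the second row of Zfp672 with MTM11-2 at 10.38 and D-2 at 9.63.

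PJ34 and control embryos were then compared to ask whether treatment of the father went with a change in the embryo. No member passed the test (limma, lowest adjusted p = 0.814 against a threshold of 0.1), and the share of all rows called was 0.0%. At an unadjusted p below 0.05 there were 13 lower members and 0 higher members, which is 8.67% lower where 3.93% of all rows were lower, and 0 where 1.96% of all rows were higher. The median difference was -0.05 log2 units over the members and -0.02 over all rows, and 91 of 150 differences (60.7%) were negative against 56.4% of all rows. For the 79 members above the dim reference by the mean of all 17 embryos, the median was -0.07, and 64.6% were negative against 55.1% of all such rows. PJ34 and control values overlapped in every member, where 0.0138% of all rows did not overlap. Without sire B the lower members numbered 5 and the higher 3, and without sire MTM11 they numbered 7 and 1. The median of the members was negative in all 32 alternative settings, between -0.07 and -0.02.

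The 13 lower rows ranged from bright to dim. Zfp825 held 2 of them. Its first row read 10.44, 10.75 and 11.54 at the lowest, median and highest in control embryos and 9.68, 10.08 and 10.98 in PJ34 embryos, a difference of -0.66 (95% interval from -1.13 to -0.19; limma, adjusted p = 0.814). Its second row read 5.32, 5.61 and 8.03 in control and 5.04, 5.68 and 6.02 in PJ34 embryos, a difference of -0.85 (limma, adjusted p = 0.843). In that row the medians did not differ in the same direction as the means, since some control embryos were far above the rest, and its mean over all 17 embryos (5.92) was below the dim reference.

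Zfp638 read 8.98, 9.64 and 9.93 in control and 8.36, 9.15 and 9.69 in PJ34 embryos, a difference of -0.54 (95% interval from -0.92 to -0.16; limma, adjusted p = 0.814). Of the PJ34 embryos, 9 of 10 were below the control mean and 3 were below the lowest control embryo. Zfp623 read 8.57, 9.21 and 9.80 in control and 7.62, 8.69 and 9.35 in PJ34 embryos, a difference of -0.63 (limma, adjusted p = 0.843), which was -0.35 without sire B. Zfp951 read 8.18, 8.71 and 9.24 in control and 6.98, 7.89 and 8.95 in PJ34 embryos, a difference of -0.60 (limma, adjusted p = 0.843), with 7 of 10 PJ34 embryos below the lowest control. Zfp644, the partner of G9a and GLP, differed by -0.31 and Zfp820 by -0.40, each with 9 of 10 PJ34 embryos below the control mean. Without sire D, Zfp644 differed by -0.49. Zfp710 differed by -0.21. None of these differences passed the adjustment over all rows.

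The other lower members were dim. Zfp953, the dimmest member, read 3.53 to 3.68 in control embryos and 3.42 to 3.58 in PJ34 embryos, a difference of -0.12. Zfp933 differed by -0.21, Zfp715 by -0.13, Zfp605 by -0.16 (-0.10 without sire B) and Zfp658 by -0.19. In Zfp953, Zfp933, Zfp715 and Zfp605 all 10 PJ34 embryos were below the control mean. These rows were below the dim reference in control embryos, and a difference there is one of low signal.

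**Figure D5:**
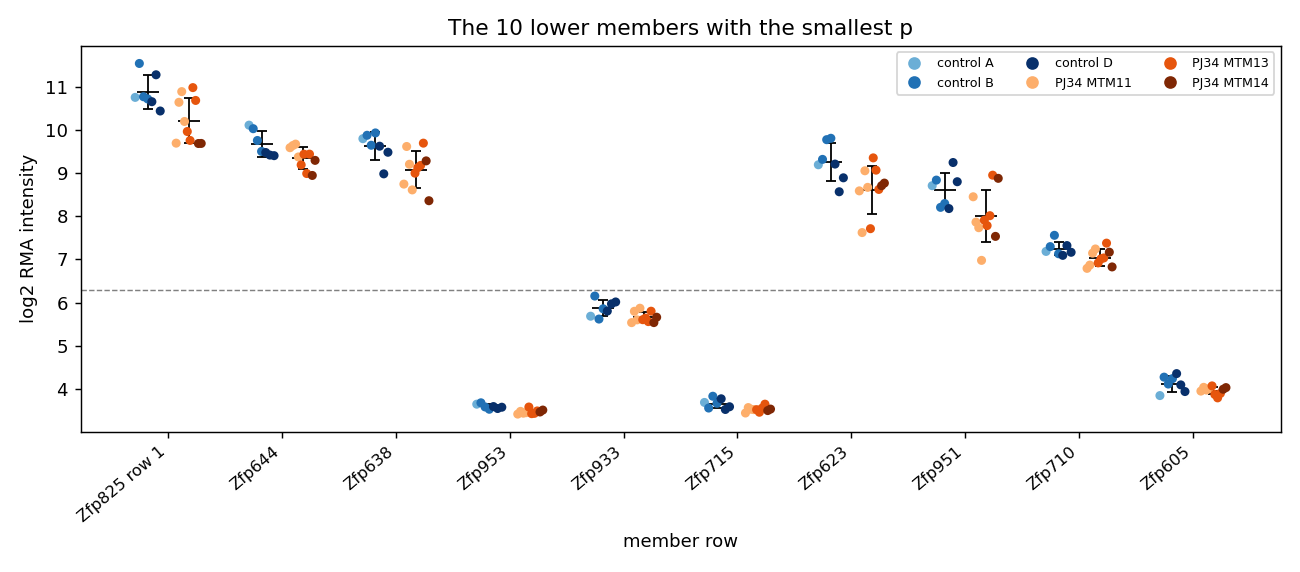
Log2 RMA intensity (y axis) in each of 17 embryos of the 10 lower member rows with the smallest unadjusted p (x axis); points are embryos colored by sire, control at the left and PJ34 at the right, bars are the group mean ± SD and the dashed line is the dim reference. The groups overlap in every row, with 7 of 10 PJ34 embryos of Zfp951 below the lowest control.

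On the higher side the smallest p belonged to Zfp609, which works with the cohesin loader NIPBL. It read 6.38, 7.01 and 7.32 in control and 6.95, 7.10 and 7.35 in PJ34 embryos, a difference of 0.25 (95% interval from -0.02 to 0.52; limma, adjusted p = 0.855). All 10 PJ34 embryos were above the control mean and 1 was above the highest control embryo. Zfp830 differed by 0.62 (95% interval from -0.09 to 1.34), with a highest PJ34 value of 8.18 in MTM14-2. Zfp735 differed by 0.48, Zfp954 by 0.42, Zfp654 by 0.39, Zfp940 by 0.23, Zfp637 by 0.19, Zfp768 by 0.18, Zfp871 by 0.16 and Zfp938 by 0.09. All of their 95% intervals included 0. Leaving out 1 embryo or sire moved most of these differences by over 1.5 times. Zfp654 came to 0.14 without control embryo B-2 and to 0.04 without sire B, Zfp954 to 0.23 without MTM13-2, Zfp940 to 0.38 without sire D and Zfp637 to 0.09 without sire MTM13. Zfp609 came to 0.17 and Zfp938 to 0.06 without A-2, the lone embryo of sire A. Zfp871 ran from 0.09 without sire MTM11 to 0.26 without sire MTM13, and Zfp768 from 0.09 without B-2 to 0.29 without D-3. The brightest members showed small differences, -0.14 for the first row of Zfp706 (95% interval from -0.34 to 0.05) and -0.03 for Zfp622 (95% interval from -0.27 to 0.22).

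Taken as a mean over the 150 rows, the level per embryo was 6.54 ± 0.07 (SD, n = 7) in control embryos, from 6.41 to 6.60, and 6.46 ± 0.04 (SD, n = 10) in PJ34 embryos, from 6.39 to 6.54. Of the control embryos, 5 of 7 were above the highest PJ34 embryo, and A-2 and D-3 lay within the PJ34 range. This did not hold for the 80 members above the dim reference, where only control embryo B-1 (7.92) was above the highest PJ34 embryo, MTM11-3 (7.88). Over all rows with 1 symbol no control embryo was above the highest PJ34 embryo (6.62 for the highest control, 6.63 for the highest PJ34). The means differed by -0.08 over the members and by -0.02 over all rows with 1 symbol, whose level per embryo was 6.60 ± 0.02 (SD, n = 7) in control and 6.59 ± 0.02 (SD, n = 10) in PJ34 embryos.

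The families of the treated males were also set against the control embryos one by one. No member was called in the family of MTM11, where 0.00459% of all rows were called, in that of MTM13, with 0.0%, or in that of MTM14, with 0.0551%. No member was called between the PJ34 families either, where 0.0138% of all rows were called; at an unadjusted p below 0.05 the shares were 4% of members and 4.91% of all rows. Over all 6 sires 1 member was called, Zfp763 (moderated F test in limma, adjusted p = 0.0577), that is 0.667% of the members where 0.216% of all rows were called. Zfp763 read 4.77 in A-2, the only embryo of sire A, and between 3.44 and 3.97 in the other 16 embryos. It is a dim row. With dim rows left out no member was called, but that setting drops Zfp763 itself and so cannot test the call.

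Each PJ34 embryo was set against the 7 controls, with the spread of the controls standing in for that of the single embryo. This gave 5 calls among 1500 pairs of embryo and member (0.333%), where 0.581% of all pairs were called. The first row of Zfp738 in MTM13-1 read 9.32 against a control mean of 4.39. Its other rows were not called in that embryo. Without MTM13-1 the group difference went from 0.52 to 0.03 in the first row of Zfp738 and from 0.10 to 0.06 in the second. Zfp661 in MTM14-1 read 7.31 against 6.34, Zfp871 in MTM11-4 read 6.33 against 5.56 and Zfp943 in MTM13-3 read 5.52 against 4.27. Zfp961, one of the brightest members, was lower in MTM11-2, at 6.66 against 9.80. No member was called in more than 1 PJ34 embryo. Each control embryo against the other 6 gave 12 calls among 1050 pairs (1.14%), where 0.397% of all pairs were called, among them the second row of Zfp672 in D-2, Zfp931 in B-3, Zfp760 in B-1 (9.03) and Zfp770 in B-2. When the spread was taken from all embryos within their sire groups, 0 calls were made for PJ34 embryos, over all rows as well as over the members. That spread includes the distance of the tested embryo from its siblings, so a lone high or low embryo widens it. This setting could therefore hardly call a single embryo, and it cannot test whether the 5 calls hold.

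Partners of KRAB zinc finger proteins and other chromatin genes, among them Eed and Dppa3, were examined from a list of 34 genes. Of these 30 were found, on 44 rows, and 40 of the rows were above the dim reference. Trim28 stood at 8.64 ± 0.35 (SD, n = 7) in control and 8.52 ± 0.42 (SD, n = 10) in PJ34 embryos. Setdb1 stood at 8.20 ± 0.30 and 7.79 ± 0.36, a difference of -0.41 (95% interval from -0.75 to -0.07; limma, adjusted p = 0.843). No row of the list was called. At an unadjusted p below 0.05, Setdb1 and 1 row of Sumo2 (-0.12) were lower, and 1 row of Atf7ip (0.35) and Uhrf1 (0.34), which reads hemimethylated DNA, were higher. These are 4.55% of the 44 rows in each direction, beside 3.93% lower and 1.96% higher over all rows. The median difference over the 44 rows was -0.04. Genes with several rows, such as Cbx3 and Sumo2, weigh more in these shares and in the median. Of the listed zinc finger genes outside the block, Zfp57, which keeps imprints methylated, was at 11.97 ± 0.14 (SD, n = 7) in control and 12.11 ± 0.16 (SD, n = 10) in PJ34 embryos. The others were less bright. In control and PJ34 embryos, Zfp568 stood at 8.92 and 8.62, Zfp445 at 7.95 and 7.96 and Zfp42 at 6.69 and 7.03.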

How the data were processed

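Amplified RNA of single embryos was read on Affymetrix Mouse Gene 1.0 ST arrays. The authors deposited log2 intensities made by RMA in Partek software (background correction, quantile normalization, log2 transformation and probe set summary); software versions and the genome build were not given in the sources used here. Quantile normalization gives all arrays a like distribution, so a shift common to most transcripts would not be seen. The 28815 rows by 17 embryos were used as deposited. The number of arrays limits the precision, with a median standard error of 0.14 for a member's group difference. Genes came from the platform annotation, which can be old, with names checked by gene identifier; 5430 rows had no symbol and 1605 had several, and these were left out of the comparisons.

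The members, gene lists and tests were chosen with earlier results of these data known. Groups were taken from the labels. Rows were fitted with limma 3.58.1 in R 4.3.3 (linear model, empirical Bayes, two-sided), with Benjamini-Hochberg adjustment over 21780 rows and the study's threshold of 0.1; a change needed an adjusted p below it. Fits were 10 PJ34 against 7 control embryos, 3 families against the controls, an F test over 6 sires within treatments, and single embryos against controls. P-values over embryos treat embryos of 1 sire as separate. Spread was the SD within groups, ranked in 20 bins of level. Named rows were the 10 brightest, the 10 of smallest p in each direction, the 6 most variable above the dim reference, rows called between sires or families, the genes whose rows differed most, and a list of members with a known role; other rows were named after their values were seen. Alternatives were array centering, the sire as a block or as means, an unmoderated test, other rows, filters, priors and membership, and leaving out each embryo or sire. The scripts were tested on simulated data. Python 3.11.15 with matplotlib 3.10.9 made the figures.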

Additional observations from a re-analysis of the deposited data

Results flagged for a closer look

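In each of the 50 named rows the control and the PJ34 embryos were searched for 1 value far from the rest (Dixon's criterion), and 10 of 100 groups met it; chance gives about 1 in 20 groups where rows are not picked for their values, but some of these rows were named for their spread, for rows of a gene that differ or, as Zfp763, for a difference between sires, so that rate is no baseline for them. Control embryos stood high for Zfp735 (B-1, 6.63; next 5.65), Zfp954 (D-3, 6.03; next 4.95), Zfp763 (A-2, 4.77; next 3.75) and the second row of Zfp738 (B-2, 4.44; next 4.09). Zfp654 was low in control embryo B-2 (7.34; next 8.68). PJ34 embryos stood high for Zfp637 (MTM13-4, 5.80; next 5.37), the first row of Zfp985 (MTM14-2, 8.39; next 7.24), the first row of Zfp738 (MTM13-1, 9.32; next 5.02) and Zfp661 (MTM14-1, 7.31; next 6.46). Zfp961 was low in PJ34 embryo MTM11-2 (6.66; next 8.66). The embryos were different ones in most cases, and B-2 was the only embryo with 2 such values.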

How the results depend on the processing

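No member was called in the group comparison under any of the 32 alternatives, and the median difference of the members was negative under all of them. The number of higher members at an unadjusted p below 0.05, which was 0, came to 2 with arrays centered on their medians and to 2 with means of embryos per sire, and lay between 0 and 3 when 1 embryo or sire was left out. The number of lower members, 13 as reported, came to 7 with dim rows left out and lay between 5 and 14 when 1 embryo or sire was left out. With dim rows left out no member was called between sires (0 called), since the called member, Zfp763, was itself among the rows left out. With the spread taken from all embryos in their sire groups, the 5 calls of single PJ34 embryos were not made (0 called, as over all rows). That spread includes the deviation of the tested embryo itself, so it could hardly call a lone embryo. Above the dim reference stood between 57 and 90 members under the other references. The cause of these changes was not tested. Of the 50 named rows, 39 had a difference that moved by over 1.5 times and 20 turned sign when 1 embryo or sire was left out. No paired analysis was possible because embryo numbers only name embryos within a sire. Signal near the background limits what the 70 members at or below the dim reference can show.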

Other observations

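The 34 rows that named a gene of the block together with other symbols were brighter than the members. Their median in control embryos was 9.15, and 28 of 34 (82.4%) were above the dim reference. For 20 genes of the block, such as Zfp932, these were the only rows. None was called between PJ34 and control embryos; 7 were lower and 0 higher at an unadjusted p below 0.05 in limma, with a median difference of -0.24 and 28 of 34 differences negative (82.4%). In the same fit over all 28815 rows, 3.78% were lower (20.6% of these 34) and 1.84% higher, the median difference was -0.01 and 55.5% were negative. The lowest adjusted p was 0.834.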
